A study of Mus musculus with 18 samples.

Results

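The genes described here are 8 markers and working parts of the kidney's proximal tubule, namely Hnf4a, Lrp2, Cubn, Amn, Dab2, Slc34a1, Slc27a2 and Fbp1. They were chosen by name, and each was found as 1 row among the 78317 genes of an RNA sequencing table. The table held 18 libraries made from E14 (embryonic day 14) kidneys of CD1 mice, which are outbred, of wild-type genotype. The explants were exposed to AAV2, a gene delivery virus of the adeno-associated family, for 4 hours and then grew for 72 hours in a gel of collagen I and matrigel. Every vector carried the red reporter mCherry under a CAG promoter, which is active in most cell types, and 2 mir30 hairpin cassettes. In Mylk-shRNA both cassettes were directed against Mylk, in Rock1/2-shRNA they were directed against Rock1 and Rock2, and in scramble-shRNA, the control, they held shuffled Rock1 and Rock2 targets. Thus the controls were transduced too, and no group without virus was among the libraries. Explants of a condition were pooled, digested for 30 minutes and sorted by mCherry brightness, the brightest 25% of cells being called positive and the dimmest 50% negative. A positive and a negative library of the same vector and litter therefore came from the same pool of cultures. Vector and fraction together gave 6 groups with 3 libraries in each, and replicate numbers 1 to 3 are litters 1 to 3.

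The proximal tubule is the first segment after the glomerulus and takes back most of the filtered solutes and protein. Hnf4a encodes a nuclear receptor that directs the maturation of proximal tubule cells. Lrp2 encodes megalin, the large endocytic receptor of the apical membrane, which works with cubilin (Cubn) and with amnionless (Amn), the partner that carries cubilin to the membrane. Dab2 encodes an endocytic adaptor that binds the tail of megalin, and it is also expressed in mesenchymal cells and macrophages. Slc34a1 encodes a sodium-phosphate cotransporter of the brush border. Slc27a2 encodes a protein of fatty acid uptake and activation, and Fbp1 a rate-limiting enzyme of gluconeogenesis. At E14 the mouse kidney is still forming its first nephrons, and most proximal tubule functions rise later in development.

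RefSeq start-site windows of GRCm38.p6, from 250 bases before to 50 after each start, were matched for all 8 genes, with 10 windows in all because Hnf4a and Dab2 have 2 each. The counts were made on another build, GRCm39, so these windows show sequence only. The letters CAAAGTCC or their reverse complement GGACTTTG, a form of the HNF4 recognition sequence, were sought on both strands. This motif was chosen after the sequences had been seen. It was found in 1 of the 10 windows, that of Slc34a1, and in 1.42% of 32851 windows of all genes. The windows of Hnf4a (chr2:163546905-163547204, plus strand, the downstream of its 2 windows), Slc34a1 (chr13:55399398-55399697, plus strand) and Fbp1 (chr13:62888233-62888532, minus strand) are shown because Slc34a1 and Fbp1 moved together across libraries, and Hnf4a is the regulator among the 8. They read 5′ to 3′ on the gene's strand, with motif letters in capitals.
Hnf4a: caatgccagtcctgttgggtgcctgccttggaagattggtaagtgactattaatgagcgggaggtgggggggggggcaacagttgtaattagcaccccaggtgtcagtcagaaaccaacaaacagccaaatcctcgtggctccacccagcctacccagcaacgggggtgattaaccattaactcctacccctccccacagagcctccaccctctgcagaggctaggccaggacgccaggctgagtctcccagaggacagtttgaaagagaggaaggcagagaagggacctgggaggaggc
Slc34a1: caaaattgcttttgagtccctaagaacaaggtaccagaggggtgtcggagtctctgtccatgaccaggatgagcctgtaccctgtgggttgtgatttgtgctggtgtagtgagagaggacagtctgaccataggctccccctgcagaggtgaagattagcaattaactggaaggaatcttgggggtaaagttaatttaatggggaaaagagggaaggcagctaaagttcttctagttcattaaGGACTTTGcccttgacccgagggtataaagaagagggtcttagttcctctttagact
Fbp1: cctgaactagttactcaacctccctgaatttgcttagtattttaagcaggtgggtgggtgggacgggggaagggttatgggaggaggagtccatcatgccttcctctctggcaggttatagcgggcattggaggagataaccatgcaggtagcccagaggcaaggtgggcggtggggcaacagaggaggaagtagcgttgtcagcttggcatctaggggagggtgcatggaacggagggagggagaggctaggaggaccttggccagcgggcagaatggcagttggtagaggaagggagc
In the Slc34a1 window the letters began 7 bases before the RefSeq start site. The end of the Fbp1 window lay in an annotated transcript of its gene, while the ends of the Hnf4a and Slc34a1 windows shown did not. The start sites of Hnf4a and Slc34a1 were therefore not borne out by this check, and the distance holds for the RefSeq start only. The Hnf4a and Fbp1 windows did not hold them, which says only that these letters were not in these 300 bases.

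The libraries held between 3121616 and 12170814 counts, at medians of 4197364 in the positive and 10915587 in the negative fraction. Litter 3 held fewer counts (median 3987193) and a larger share of mitochondrial transcripts, 3.95 to 9.16% against 2.01 to 4.02% in litters 1 and 2. Each of 10 nephron progenitor and 10 podocyte genes, markers of fetal kidney, was counted in at least 1 library of each fraction. The 10 liver and 7 adrenal cortex genes met this too in the negative fraction, so the measure does not show a tissue. Of 12 macrophage markers all 12 were higher in the positive fraction, with summed levels of 238 to 507 CPM (counts scaled to a common library total) against 8.13 to 18.8 CPM. Of 11 stromal markers all 11 were also higher there (5183 to 8544 against 3396 to 4249 CPM). The targeted transcripts stood at 87.9 to 106% of scramble-shRNA over 6 ratios (Mylk with Mylk-shRNA, and Rock1 and Rock2 with Rock1/2-shRNA, in each fraction), and none of the 6 passed edgeR's quasi-likelihood test. In bulk RNA, fewer cells of a type and less RNA per cell cannot be told apart.

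All 8 genes were detected, but at very different depths of counting. Dab2 was counted 221 to 846 times per library, Slc34a1 76 to 276 times and Lrp2 38 to 157 times. Fbp1 followed with 19 to 58 counts, Hnf4a with 4 to 70, Slc27a2 with 6 to 40 and Amn with 5 to 41. Cubn had 0 to 9 counts, and 0 in 1 library. It was the 1 gene of the 8 that did not pass the filter on low counts, so 7 were tested. Its 1 count of 0 allows a level of up to 0.533 CPM in that library (3 counts, for counting error only). Cubn is therefore given as a description, with group means from 0.356 ± 0.105 CPM (SD, n = 3) in Mylk-shRNA positive to 0.945 ± 1.15 CPM in scramble-shRNA positive. Its ranges in the positive (0 to 2.22 CPM) and negative fraction (0.177 to 1.44 CPM) overlapped.

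**Figure D1:**
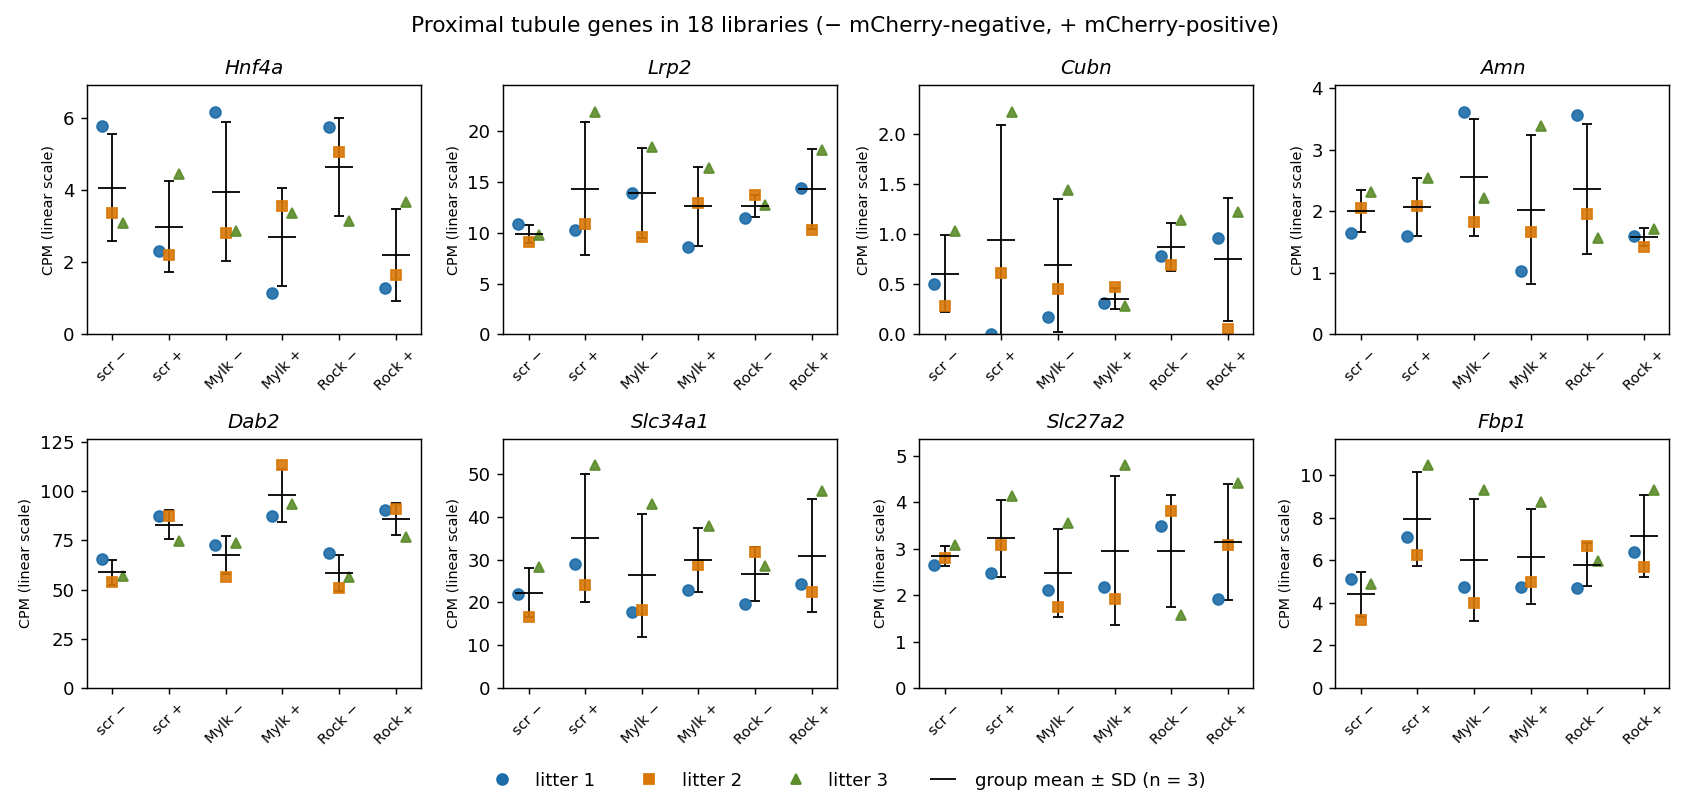
CPM of the 8 genes in each library on linear axes, by group (scr, Mylk and Rock stand for scramble-shRNA, Mylk-shRNA and Rock1/2-shRNA, with − and + for the mCherry fractions), with points shaped by litter and bars for the group mean ± SD (n = 3). For Dab2 every positive library (74.7 to 113 CPM) lay above every negative one (50.6 to 73.7 CPM), while the fractions overlapped for the other 7 genes.

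The mCherry fractions were compared first, within each vector and over the mean of the 3 vectors. Over the mean of the vectors 2 of the 7 tested genes passed the edgeR test at an adjusted p of 0.05, 1 higher (Dab2) and 1 lower (Hnf4a). Of all 16544 genes tested 33.6% passed (17.6% higher and 16% lower), so 2 of 7 was no larger a share than the background, and their median log2 fold change of 0.13 stood beside -0.03 for all genes. Within each single vector Dab2 was the 1 gene of the 7 that passed, and it was higher. With litter as a block, 3 of the 7 passed over the vectors (Fbp1 added, background 45.8%) and 2 in scramble-shRNA (23.3%). With the culture as a block, 4 passed over the vectors (Fbp1 and Slc34a1 added, background 43.9%) and 3 in scramble-shRNA (21%). Without a block the background was 12.3% of genes in scramble-shRNA (7.43% higher, 4.85% lower), 13.2% in Mylk-shRNA (8.07% higher, 5.14% lower) and 11.2% in Rock1/2-shRNA (6.94% higher, 4.3% lower).

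The regulator Hnf4a (ENSMUSG00000017950) was lower in the positive fraction, at 0.556-fold of the negative fraction over the mean of the vectors. Given in the order of litters 1, 2 and 3, it stood at 2.31, 2.21 and 4.44 CPM in scramble-shRNA positive against 5.77, 3.37 and 3.08 CPM in scramble-shRNA negative. In Mylk-shRNA it stood at 1.14, 3.57 and 3.38 CPM in the positive against 6.18, 2.82 and 2.88 CPM in the negative fraction. In Rock1/2-shRNA it stood at 1.28, 1.66 and 3.67 against 5.74, 5.07 and 3.13 CPM. The litter 1 cultures thus had the highest negative and the lowest or nearly the lowest positive levels, and the fractions overlapped over all 18 libraries. The log2 fold change was -0.85 (SE 0.27, adjusted p = 0.0200), and Hnf4a was lower in the positive library in 5 of 9 cultures. It did not pass in single vectors, with log2 fold changes of -0.61 (adjusted p = 0.463) in scramble-shRNA, -0.78 (0.313) in Mylk-shRNA and -1.15 (0.140) in Rock1/2-shRNA. The call over the vectors was lost without scramble-shRNA negative replicate 1 (adjusted p = 0.0508), without Rock1/2-shRNA positive replicate 2 (0.0575) or without Mylk-shRNA negative replicate 1 (0.0608), and adjusted p ranged from 0.00704 to 0.0608 over the 18 libraries left out in turn.

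The values of Hnf4a were also compared within each litter. A fit with 1 mean per litter and fraction, added after the data had been seen, treats the 3 vectors of a litter as its replicates. It gave a log2 fold change of -1.95 (SE 0.28, adjusted p = 4.42e-06) in litter 1, where 28.1% of genes passed, and -0.74 (SE 0.26, adjusted p = 0.0315) in litter 2, where 33.5% passed. In litter 3, where 17.2% passed, it was 0.27 (SE 0.32, adjusted p = 0.638). Hnf4a was higher in the positive library in 0 of 3 cultures of litter 1, 1 of 3 of litter 2 and 3 of 3 of litter 3. The difference between litters 3 and 1, the extremes, picked after their values were seen, was 2.22 on the log2 scale (SE 0.43, edgeR adjusted p = 0.0301), a test that 0.133% of genes passed. Against the mean of litters 1 and 2 it was 1.61 and did not pass (SE 0.38, adjusted p = 0.0716, with 0.248% of genes passing). Each litter is 1 sample of its kind. Several measures set the litters apart. Litter 1 had 4 to 13 counts of Hnf4a in the positive and 63 to 70 in the negative libraries. Litter 3 had 12 to 22 counts of Hnf4a per library. The 8 erythroid markers summed to 1689.6 to 3031 CPM in its positive libraries against 340 to 1306 CPM in those of litter 1. The 12 genes that respond to tissue dissociation summed to 4041 to 4582 CPM in the positive and 3116 to 3365 CPM in the negative libraries of litter 1. In litter 3 they summed to 1370.4 to 1384 and 1370.9 to 1668 CPM. Litter 2 was the lowest, at 903 to 929 CPM in the positive and 776 to 917 CPM in the negative libraries. Between the fractions 7 of the 12 rose and 1 fell in litter 1. In litter 2, 2 rose and 3 fell, and in litter 3, 0 rose and 5 fell. Within the 9 positive libraries log2 Hnf4a had r = 0.94 with the log2 erythroid sum, and within the 9 negative libraries r = 0.02, as a description. In the positive libraries the same r was 0.91 for Slc34a1, 0.77 for Fbp1, 0.73 for Lrp2 and 0.68 for Amn. It was 0.65 for Slc27a2, 0.37 for Cubn and -0.28 for Dab2, so a high r was not particular to Hnf4a. The part of depth, mitochondrial share, erythroid RNA and stress genes in the difference between litters was not tested.

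**Figure D2:**
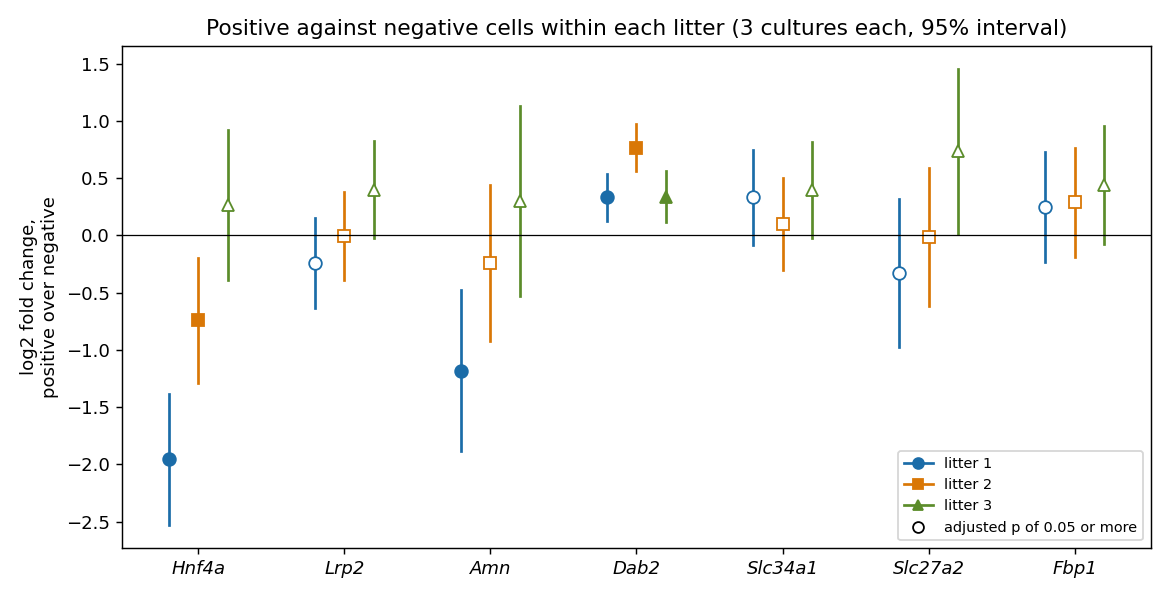
Log2 fold change of positive over negative within each litter for the 7 tested genes, with 95% intervals from edgeR and open symbols where the adjusted p was 0.05 or more. Hnf4a ran from -1.95 in litter 1 to 0.27 in litter 3, whereas Dab2 was above 0 in all 3 litters.

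Of the endocytic genes, the adaptor Dab2 passed between the fractions, while the receptor genes Lrp2 and Amn did not pass and Cubn was not tested. Lrp2 (ENSMUSG00000027070), the megalin gene, ranged from 8.59 to 21.9 CPM in the positive fraction (median 12.9) and from 9.04 to 18.4 CPM in the negative fraction (median 11.5). Its fractions overlapped almost fully, and the log2 fold change was 0.10 (SE 0.18, 95% interval -0.27 to 0.48, edgeR adjusted p = 0.696). Litter 3 held the highest Lrp2 in 4 of the 6 groups, with 16.2 ± 4.35 CPM (SD, n = 6) against 11.3 ± 1.97 CPM (SD, n = 12) in litters 1 and 2. Without litter 3 the log2 fold change between the fractions turned to -0.11 (adjusted p = 0.550).

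Amn (ENSMUSG00000021278), needed for cubilin to reach the membrane, ranged from 1.03 to 3.38 CPM in the positive and from 1.57 to 3.62 CPM in the negative fraction. The log2 fold change of -0.40 (SE 0.25, 95% interval -0.93 to 0.13, edgeR adjusted p = 0.2397) did not pass. Like Hnf4a, Amn was higher in the positive library in 0, 1 and 3 of the 3 cultures of litters 1, 2 and 3. Within litter 1 its log2 fold change was -1.18 (SE 0.34, adjusted p = 0.0101), within litter 2 -0.24 (0.623) and within litter 3 0.30 (0.684). Without litter 3 it passed in the edgeR test over the vectors, at -0.73 (adjusted p = 0.0415). The difference between litters 3 and 1 was 1.48 (SE 0.54, adjusted p = 0.324) and did not pass.

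Dab2 (ENSMUSG00000022150), the adaptor, was higher in the positive fraction in 9 of 9 cultures. In the order of litters 1, 2 and 3 it stood at 87.2, 87.3 and 74.7 CPM in scramble-shRNA positive against 65.7, 53.7 and 56.8 CPM in scramble-shRNA negative. In Mylk-shRNA it stood at 87.5, 113 and 93.4 CPM against 72.6, 56.5 and 73.7 CPM. In Rock1/2-shRNA it stood at 90.3, 91.0 and 76.5 CPM against 68.4, 50.6 and 56.4 CPM. The lowest positive library, at 74.7 CPM, was just above the highest negative one, at 73.7 CPM, so the fractions did not overlap, which held for 8.72% of all genes tested (6.65% higher and 2.06% lower). Over the mean of the vectors Dab2 rose 1.39-fold (log2 0.48, SE 0.075, 95% interval 0.32 to 0.63, edgeR adjusted p = 6.34e-05). Its rise was close in size in the vectors, at 1.37-fold (adjusted p = 0.0262) in scramble-shRNA, 1.39-fold (0.0200) in Mylk-shRNA and 1.42-fold (0.0156) in Rock1/2-shRNA. Within litters it was 0.33 (adjusted p = 0.0140), 0.76 (9.74e-07) and 0.34 (0.0313) on the log2 scale.

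Over the mean of the vectors Dab2 passed with each of the 18 libraries left out, with adjusted p from 3.02e-05 to 2.59e-04. The calls within single vectors were less stable in edgeR's test. In scramble-shRNA the call was lost without positive replicate 1 (adjusted p = 0.0866) or 2 (0.107) and without negative replicate 2 (0.140) or 3 (0.0539). In Mylk-shRNA it was lost without positive replicate 2 (0.0917) or negative replicate 2 (0.111). In Rock1/2-shRNA it was lost without positive replicate 1 (0.0561) or 2 (0.0674) or negative replicate 2 (0.0986). The macrophage and stromal marker sums given above moved in the same direction as Dab2. The correlation of log2 Dab2 with the log2 stromal sum was r = 0.84 within the 9 positive and 0.47 within the 9 negative libraries. With the macrophage sum it was 0.42 and 0.46, and with the endothelial sum 0.65 and 0.14, as a description of libraries that share cultures and depth. In the negative libraries the macrophage r was higher for Fbp1 (0.86), Slc34a1 (0.84), Cubn (0.82), Lrp2 (0.70) and Slc27a2 (0.48). It was lower there for Amn (-0.05) and Hnf4a (-0.23). In the positive libraries it was higher than that of Dab2 for Hnf4a (0.63) and Amn (0.45) and lower for the rest. The part of these cell types in the rise of Dab2 was not tested.

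**Figure D3:**
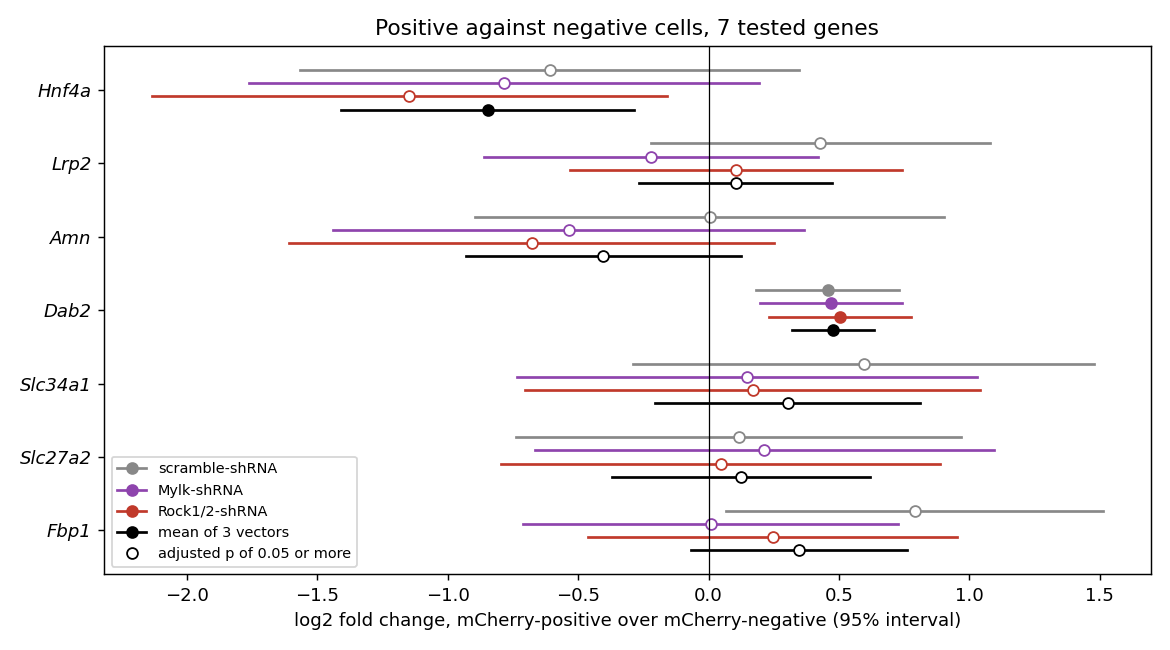
Log2 fold change of mCherry-positive over mCherry-negative cells for the 7 tested genes, by vector and over the mean of the 3 vectors, with 95% intervals from edgeR and open circles where the adjusted p was 0.05 or more. Dab2 stood above 0 in every comparison, Hnf4a passed below 0 over the mean of the vectors, and the other 5 genes did not pass.

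The transport and metabolic genes Slc34a1, Slc27a2 and Fbp1 did not pass between the fractions. Slc34a1 (ENSMUSG00000021490), the phosphate cotransporter, stood at 28.9, 23.9 and 52.0 CPM in litters 1, 2 and 3 of scramble-shRNA positive against 21.9, 16.7 and 28.3 CPM in scramble-shRNA negative. In Mylk-shRNA it stood at 23.0, 28.8 and 37.8 CPM against 17.8, 18.3 and 42.9 CPM. In Rock1/2-shRNA it stood at 24.3, 22.4 and 46.0 CPM against 19.7, 31.8 and 28.5 CPM. Litter 3 was highest in 5 of the 6 groups, and the fractions overlapped. The log2 fold change was 0.30 (SE 0.24, 95% interval -0.20 to 0.81, edgeR adjusted p = 0.361), with the positive library higher in 7 of 9 cultures. With the culture as a block, the fit that pairs the 2 fractions of a pool, it passed at 0.28 (adjusted p = 0.0400), and in scramble-shRNA at 0.54 (0.0464), while with litter as a block it did not (0.0573 over the vectors). Total counts were lower in the positive fraction, and Slc34a1 was higher in libraries of lower total (r = -0.79 over 18 libraries), and the part of depth in this result was not tested. Its counts kept a nearly constant ratio to those of Cyp4a14 and Kap (values below), and whether its reads came from cells of the explants or from RNA of another sample was not tested.

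Fbp1 (ENSMUSG00000069805), the gluconeogenic enzyme, stood at 7.10, 6.26 and 10.5 CPM in litters 1, 2 and 3 of scramble-shRNA positive against 5.13, 3.20 and 4.88 CPM in scramble-shRNA negative. In Mylk-shRNA it stood at 4.76, 5.00 and 8.74 CPM against 4.77, 3.98 and 9.29 CPM. In Rock1/2-shRNA it stood at 6.41, 5.68 and 9.30 CPM against 4.70, 6.68 and 5.98 CPM. With 3 libraries on each side, the fractions lay apart in scramble-shRNA and overlapped in the other vectors. The share of all genes lying apart within 1 vector was not counted. The log2 fold change was 0.35 (SE 0.20, 95% interval -0.07 to 0.76, edgeR adjusted p = 0.193) over the vectors and 0.79 (SE 0.34, adjusted p = 0.157) in scramble-shRNA. With litter as a block both passed, at 0.32 (adjusted p = 0.0469) and 0.74 (0.0206), and with the culture as a block at 0.32 (0.0429) and 0.76 (0.0158). Without Mylk-shRNA negative replicate 3 the value over the vectors was 0.47 (adjusted p = 0.0450).

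Slc27a2 (ENSMUSG00000027359), of fatty acid uptake, ranged from 1.91 to 4.79 CPM in the positive and from 1.57 to 3.80 CPM in the negative fraction. Its log2 fold change of 0.13 (SE 0.24, 95% interval -0.37 to 0.62, edgeR adjusted p = 0.731) did not pass, and it turned to -0.15 (adjusted p = 0.612) without litter 3. Its levels rested on 6 to 40 counts per library, and a change smaller than the interval was not detectable at this depth.

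The next question was whether the hairpins against Mylk or Rock1/2 changed the level of these genes. In edgeR's test none of the 7 passed for either hairpin vector against scramble-shRNA or between the 2 hairpin vectors, in either fraction, and none passed in the 2 tests of whether a vector's effect differed between the fractions. The background was the same, as 0% of genes passed in each of these 8 comparisons. edgeR and DESeq2 both called 0 genes. Unadjusted edgeR p fell under 0.05 for 121 to 285 of the 16544 genes, a smaller share than 0.05, so these counts show no surplus of small p. The fit had no block, and its common coefficient of variation between libraries was 0.165, against 0.0987 with litter as a block. In the positive fraction the lowest log2 fold change of a member with Mylk-shRNA was that of Fbp1, at 6.17 ± 2.23 CPM against 7.94 ± 2.22 CPM in scramble-shRNA (SD, n = 3), a value of -0.38 (SE 0.35, 95% interval -1.11 to 0.35). Dab2 had the narrowest interval there, at 98.0 ± 13.4 CPM against 83.0 ± 7.25 CPM and a log2 fold change of 0.21 (SE 0.13, 95% interval -0.06 to 0.48). With Rock1/2-shRNA the lowest was Amn, at 1.58 ± 0.148 CPM against 2.07 ± 0.470 CPM and a log2 fold change of -0.38 (SE 0.47, 95% interval -1.38 to 0.61). In the negative fraction the highest was Lrp2, at 13.9 ± 4.41 CPM with Mylk-shRNA against 9.87 ± 0.891 CPM with scramble-shRNA, a log2 fold change of 0.46 (SE 0.30, 95% interval -0.17 to 1.09). Each of these intervals, from the fit without a block, included 0, as did those of every tested member in the 8 comparisons of that fit.

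Between the fractions the effect of Mylk-shRNA on Fbp1 differed by -0.78 on the log2 scale (SE 0.49, 95% interval -1.80 to 0.24, edgeR adjusted p = 1.00), and that of Rock1/2-shRNA on Amn by -0.68 (SE 0.62, 95% interval -1.99 to 0.62, adjusted p = 1.00). These were the lowest members of the 2 tests in the fit without a block. With litter as a block the Fbp1 value was -0.72 (SE 0.32, edgeR unadjusted p = 0.0349, adjusted p = 0.930). With the culture as a block it was -0.76 (SE 0.30, edgeR unadjusted p = 0.0217, adjusted p = 0.964). Neither passed. The intervals were wide for genes with few counts, for example -1.45 to 0.72 for Hnf4a with Rock1/2-shRNA in the positive fraction. The 4 Y-linked genes summed to 24.5 to 167 CPM in Rock1/2-shRNA positive and 22.6 to 179 CPM in Rock1/2-shRNA negative, against 77.9 to 104 and 76.7 to 105 CPM in the scramble-shRNA groups. In Mylk-shRNA they summed to 73.9 to 102 CPM in the positive and 78.7 to 157 CPM in the negative fraction. The Rock1/2-shRNA libraries and Mylk-shRNA negative thus spanned a wider range of Y-linked RNA than the controls. The part of Y-linked RNA in these comparisons was not tested.

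Ordered by mean level, the 3 positive groups of Dab2 came first (98.0 ± 13.4 CPM in Mylk-shRNA, 85.9 ± 8.18 CPM in Rock1/2-shRNA and 83.0 ± 7.25 CPM in scramble-shRNA), followed by Mylk-shRNA negative (67.6 ± 9.63 CPM), scramble-shRNA negative (58.7 ± 6.25 CPM) and Rock1/2-shRNA negative (58.4 ± 9.08 CPM). The step from scramble-shRNA positive to Mylk-shRNA negative was the 1 pair of neighbours of the 5 whose ranges lay apart. For Hnf4a the order ran from Rock1/2-shRNA negative (4.65 ± 1.35 CPM) to Rock1/2-shRNA positive (2.20 ± 1.29 CPM), with the 3 negative groups above the 3 positive ones, and no neighbouring groups lay apart. For Slc34a1 it ran from scramble-shRNA positive (34.96 ± 14.97 CPM) to scramble-shRNA negative (22.3 ± 5.81 CPM), and for Fbp1 from 7.94 ± 2.22 to 4.41 ± 1.05 CPM between the same groups. For Lrp2 the same 2 groups were at the ends (14.3 ± 6.55 and 9.87 ± 0.891 CPM). In Slc34a1, Fbp1, Lrp2, Cubn, Amn and Slc27a2 no neighbouring groups had ranges apart.

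Across the 18 libraries the genes fell into more than 1 pattern. Slc34a1 and Fbp1 were the pair most alike, with r = 0.92 (log2 CPM, 18 libraries) and r = 0.94 after each group's mean was taken off. Lrp2 correlated with Fbp1 (r = 0.84) and Slc34a1 (r = 0.81). Within groups these were r = 0.86 and r = 0.84. Hnf4a was most like Amn (r = 0.67, and 0.61 within groups). With Slc34a1 it had r = 0.09 (0.33 within groups) and with Fbp1 r = 0.03 (0.35 within groups). With Dab2 it had r = -0.48, which turned to 0.10 within groups. These values are descriptions of libraries that share litters, cultures and depth. The log2 CPM of Slc34a1 had r = -0.79 with the log2 total count over 18 libraries and r = -0.64 over the 12 of litters 1 and 2. The same r was -0.72 for Fbp1 and -0.65 for Lrp2, but 0.21 for Hnf4a and -0.02 for Amn. Slc34a1 stood at 39.3 ± 9.60 CPM in litter 3 (SD, n = 6) and 23.1 ± 4.77 CPM in litters 1 and 2 (SD, n = 12), and Hnf4a at 3.43 ± 0.564 and 3.43 ± 1.84 CPM.

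The genes whose pattern was most like that of a member were listed by Pearson's r over the 18 libraries, among the 11040 genes whose mean reached 5 CPM. For Slc34a1 they were Cyp4a14, a fatty acid hydroxylase gene of adult kidney and liver, and Prg4, the lubricin gene of joints (r = 0.97 each), and Kap, the androgen-regulated protein gene of the adult proximal tubule (r = 0.96). For Fbp1 they were Prg4 (r = 0.92), Cyp4a14 and Umod (r = 0.91 each), where Umod encodes uromodulin of the loop of Henle. For Lrp2 they included Ggt1, a brush border enzyme gene (r = 0.93) and Atp1b1, a sodium pump subunit gene (r = 0.92). For Hnf4a they included Abca2 and Irx3 (r = 0.80 and 0.79). For Amn they were Nupr1, Tbc1d9 and Grtp1 (r = 0.77, 0.69 and 0.69), and for Slc27a2 Ankrd49, Acta1 and Swsap1 (r = 0.71, 0.67 and 0.66). For Dab2 they were Frmd6, Mertk and Synpo (r = 0.94, 0.92 and 0.92).

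The ratio of Slc34a1 to Cyp4a14 counts was nearly the same in every library, from 0.596 to 0.786, so that the highest was 1.32 times the lowest. To Kap the ratio ranged 1.48-fold and to Prg4 1.43-fold. The ratio of Fbp1 to Cyp4a14 ranged 1.79-fold, on 19 to 58 counts of Fbp1. That of Lrp2 to Cyp4a14 ranged 2.29-fold over all libraries, 1.51-fold within the positive and 2.29-fold within the negative ones. That of Slc27a2 to Cyp4a14 ranged 3.02-fold. That of Hnf4a to Cyp4a14 ranged 6.25-fold, from 0.0336 to 0.210, and that of Amn to Cyp4a14 4.66-fold. Within the positive libraries the ratio of Slc34a1 to Cyp4a14 had a median of 0.706, and within the negative libraries 0.716. The log2 CPM of Kap, Cyp4a14, Umod and Prg4 had r = -0.79, -0.84, -0.80 and -0.81 with the log2 total count. Whether these transcripts came from cells of the explants or from RNA of another sample was not tested. The levels of Slc34a1 and Fbp1, and of Lrp2, which moved with them, are given with that limit.

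**Figure D4:**
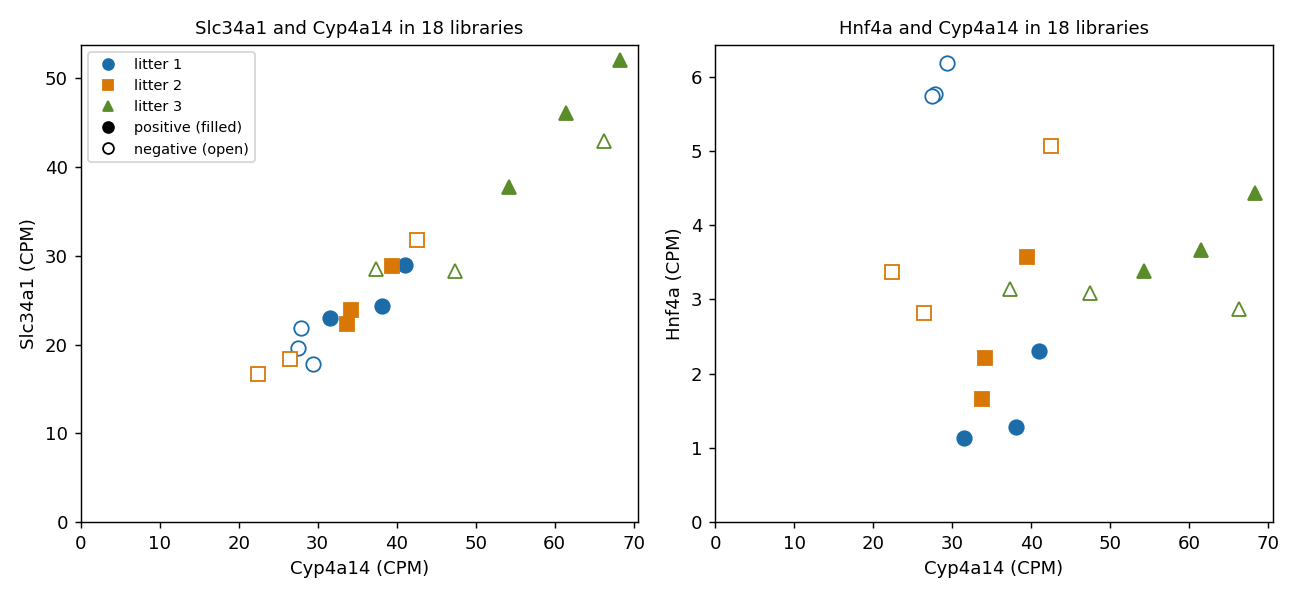
CPM of Slc34a1 (left) and Hnf4a (right) against CPM of Cyp4a14 in each of the 18 libraries on linear axes, with shapes for the litters, filled for positive and open for negative libraries. Slc34a1 kept close to a constant ratio to Cyp4a14 (0.596 to 0.786 in counts), while the ratio of Hnf4a ranged 6.25-fold.

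The wider proximal tubule programme was read from lists of transporters, metabolic enzymes, brush border proteins, endocytic adaptors and tubule regulators, over the mean of the 3 vectors. The counts stand against 17.6% of all genes tested being higher and 16% lower, with a median of -0.03, and nothing particular to a list was tested. Among 23 transporters tested of 30 listed, 5 were higher in the positive fraction and 2 lower, with a median log2 fold change of 0.32. The transporters with the smallest p were the amino acid transporters Slc7a7 (median 25.9 against 8.41 CPM, log2 1.48, edgeR adjusted p = 4.64e-09) and Slc7a8 (10.8 against 3.32 CPM, log2 1.80), the organic anion transporter Slco4c1, which fell (1.07 against 2.35 CPM, log2 -1.48), and the bicarbonate cotransporter Slc4a4 (29.6 against 18.7 CPM, log2 0.53). Slc7a7 is also known from macrophages. Among 24 metabolic genes tested of 28, 4 were higher and 0 lower, with a median of 0.24. They included Gatm of creatine synthesis (32.7 against 17.2 CPM at the median, log2 0.99, edgeR adjusted p = 1.38e-04), Sord, the sorbitol dehydrogenase gene (log2 0.53), and Acaa1b of peroxisomal fatty acid oxidation (log2 0.53). Kap and Cyp4a14, of the same list, did not pass, at 0.23 (SE 0.21) and 0.26 (SE 0.24).

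Among 15 brush border genes tested of 19, 3 were higher and 4 lower. The peptidase gene Mme (log2 0.70) rose in edgeR's test, and Espn, an actin bundler (-0.69), and the peptidase gene Dpp4 (-1.03) fell. Among 21 endocytic genes, the partners of megalin, cubilin and Dab2 in uptake, 8 were higher and 2 lower, with a median of 0.12. Ctsb, a lysosomal protease gene that is high in macrophages, had the smallest p (482 against 214 CPM, log2 1.23, adjusted p = 7.85e-09). Ap2m1, a clathrin adaptor subunit gene, and Ehd1 of endosomal recycling rose too (log2 0.31 and 0.35). Myo6, the motor that works with Dab2 in endocytosis, fell (log2 -0.56, adjusted p = 3.93e-04). The macrophage marker sum rose in the same libraries, and its part in these lists was not tested.

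Most regulators of tubule formation were lower in the positive fraction, as Hnf4a was. Of 16 tested of 18 listed, 13 were lower in the positive fraction and 1 higher, with a median log2 fold change of -1.72. By p, the 4 first were Wnt4 (110 against 340 CPM at the median, log2 -1.71, SE 0.087, edgeR adjusted p = 5.12e-11), Pax2 (54.5 against 121 CPM, log2 -1.09), Dll1 (4.44 against 28.1 CPM, log2 -2.51) and Osr2 (6.42 against 36.6 CPM, log2 -2.44). Wnt4, Pax2, Dll1 and Osr2 were lower in the positive library in all 9 cultures. Rxra, the gene of the partner of many nuclear receptors, was the 1 regulator that rose (log2 0.58). Within litters 1, 2 and 3 the median of the regulators was -1.93, -1.69 and -1.06, with 12, 11 and 8 of the 16 lower. Their direction thus held in litter 3, in which Hnf4a was at 0.27.

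**Figure D5:**
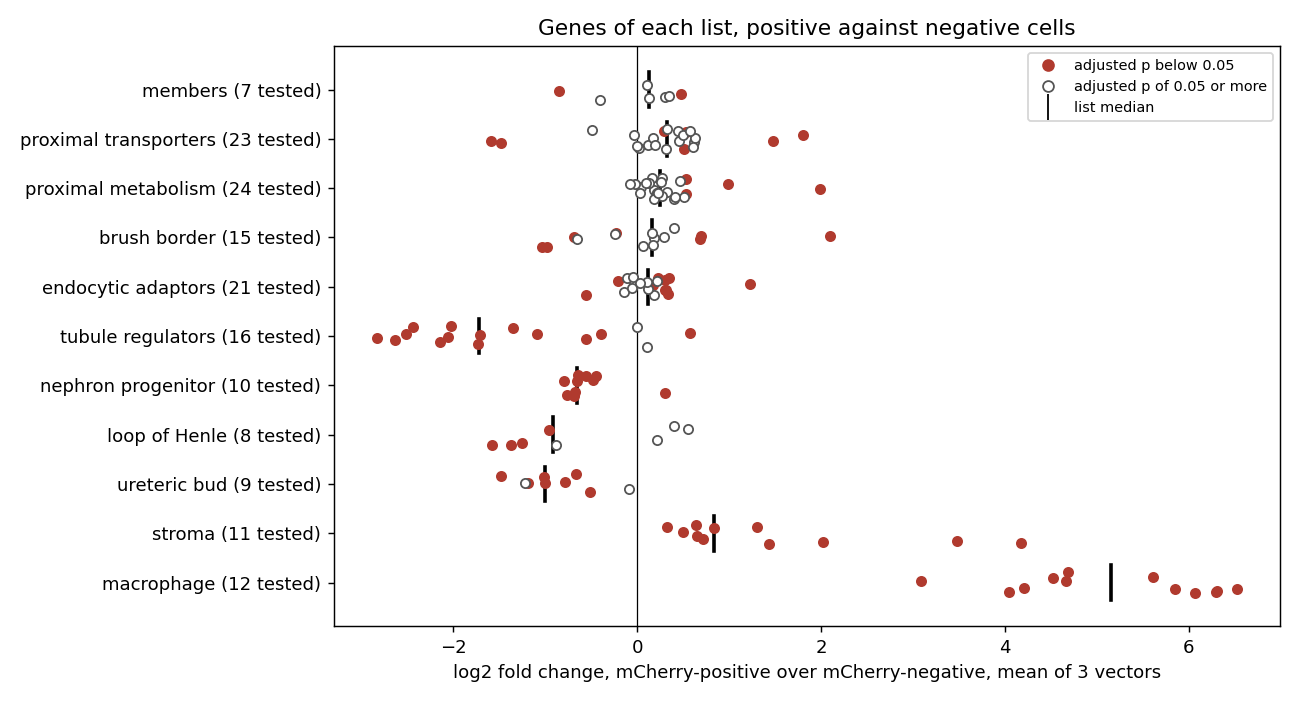
Log2 fold change of positive over negative, over the mean of the 3 vectors, for the tested genes of each list (points spread vertically for sight), filled where edgeR's adjusted p was below 0.05, with a bar at the list median. The 8 genes of interest (shown as members) had a median of 0.13, the tubule regulators of -1.72 and the macrophage markers of 5.15.

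Markers of some other kidney parts were lower in the positive fraction, against a background of 16% of genes lower and 17.6% higher. They were 9 of 10 tested for nephron progenitors (1 higher), 7 of 9 for the ureteric bud and 4 of 8 for the loop of Henle. Podocyte and distal tubule genes went both ways, with 3 of 7 lower and 2 higher, and 2 of 5 lower and 1 higher. Of the other lists, 6 of 6 erythroid, 6 of 8 smooth muscle (1 lower), 7 of 12 cell cycle and 2 of 10 endothelial genes (6 lower) were higher. Adrenal cortex genes gave 0 calls of 2, liver genes 1 higher and 1 lower of 3, and dissociation genes 2 lower of 12. The transporter and metabolic lists had medians of 0.32 and 0.24, and the regulators, progenitors and ureteric bud -1.72, -0.65 and -1.01, beside -0.03 for all genes. In the loop of Henle list Wfdc2 (log2 -1.58), Pou3f3 (-1.37), Irx2 (-1.25) and Irx1 (-0.96) fell in edgeR's test, and Umod, at 0.55 (SE 0.36), did not pass.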

How the data were processed

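Poly(A) RNA of sorted cells was sequenced after tagmentation, per the labels' protocols. The authors deposited, for each of 18 libraries, an estimated count per gene, which need not be whole, and a CPM value, which was checked to equal the count scaled by the library's sum. The submitters' processing notes name the build GRCm39 and, among the tools, SAMtools 1.22.1, featureCounts (Subread 2.1.1), STAR 2.7.11 and fastp 0.24.0. Settings, annotation, strand use and the sharing of multiply mapped reads were not given in the sources used here.

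Counts were rounded to whole numbers, which touches 12 values of 2 of the 8 genes, and 92 ERCC rows were left out. edgeR 4.0.16 (filterByExpr with minimum count 10 and minimum total 15, TMM, robust quasi-likelihood test) was fitted in R 4.3.3 to 16544 genes in all 18 libraries with 1 mean per group. In each of 12 comparisons p was adjusted over all genes (Benjamini-Hochberg), and 0.05 was the threshold. Adjusted p-values are from this test unless DESeq2 1.42.0 is named. The edgeR test was also run on simulated data with independent libraries and no litter effect. That run therefore does not cover libraries of a litter that deviate together. Intervals are 95% intervals. Values in CPM are the deposited ones, while correlations between genes use log2 TMM-scaled CPM with a prior count of 2, and those with total counts or marker sums use log2 CPM plus 0.5.

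The labels make the replicate number a litter. Libraries of the same litter deviated together (45 pairs, r = 0.237 to 0.639) and those of different litters and groups less so (90 pairs, r = -0.544 to 0.310). Litter and, for the fractions, the culture were therefore fitted as blocks too. Other alternatives were DESeq2 size factors, the DESeq2 test, no low-count filter, only the compared groups, no litter 3, and each library left out. Libraries of a group differed by more than sampling noise, and each was kept as a replicate.

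The 8 genes and the lists were chosen with earlier results of these data known. All 8 are described. From each list, up to 4 called genes with the smallest p and a mean of at least 1 CPM are named for the lists described, and beyond them Rxra, Kap, Cyp4a14 and Umod where the text turns on them. The 3 genes most like each tested member are named by r. Some genes that these rules select are not reported here.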

Additional observations from a re-analysis of the deposited data

Results flagged for a closer look

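Hnf4a and Amn stood out because every culture of litter 1 had one sign of the difference between the fractions and every culture of litter 3 the other. In litter 1 both genes were lower in the positive library in 3 of 3 cultures, and in litter 3 both were higher in 3 of 3. For Hnf4a the difference of the fraction effect, litter 3 minus litter 1, was 2.22 on the log2 scale (SE 0.43, edgeR adjusted p = 0.0301). For Amn it was 1.48 (SE 0.54, unadjusted p = 0.0104, edgeR adjusted p = 0.324), which did not pass. Both contrasts were chosen after the values were seen, within litter 3 neither gene passed (adjusted p = 0.638 and 0.684), litter 3 had fewer counts and a higher mitochondrial share, and the vectors of a litter served as its replicates.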

How the results depend on the processing

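The direction of Dab2 and Hnf4a between the fractions, over the mean of the vectors, held under the block, normalization, filter, test and leave-one-out alternatives, with Hnf4a turning to 0.27 within litter 3. The replicate block of litter raised the genes called in scramble-shRNA, Mylk-shRNA and Rock1/2-shRNA from 2032, 2186 and 1859 to 3848, 4019 and 3369, and the members called in scramble-shRNA from 1 to 2. The block of culture gave 3466, 3674 and 3026 genes, 3 members in scramble-shRNA and 4 over the vectors (2 without it), where 7270 genes passed (5558 without it). No pairing changed a call for the vectors, which stayed at 0 genes and 0 members under every alternative run for them. Without the low-count filter 0 members were called in scramble-shRNA (Dab2 adjusted p = 0.153) and Dab2 in Rock1/2-shRNA had an adjusted p of 0.0732, while Hnf4a there passed (-1.19, 0.0370). With only the compared groups, 1303 genes and 0 members were called in Mylk-shRNA (Dab2 adjusted p = 0.0818). Without litter 3, Hnf4a in Rock1/2-shRNA passed too (-1.86, 0.0283), for 2 members, and 3 values turned, Lrp2 to -0.11 and Slc27a2 to -0.15 between the fractions and Amn to -0.25 between Mylk-shRNA and Rock1/2-shRNA positive. Fbp1 in Mylk-shRNA, at 0.01, turned to -0.0071 with DESeq2 and -0.0031 with only the compared groups. Within litters, values turned for Lrp2 (-0.24 and -0.0040 in litters 1 and 2), Slc27a2 (-0.33 and -0.016 in litters 1 and 2) and Amn (0.30 in litter 3). The cause was not tested.

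Leaving out each library, the genes called ranged from 1182 to 2177 in scramble-shRNA, 1416 to 2438 in Mylk-shRNA and 1167 to 1560 in Rock1/2-shRNA. Members called ranged from 0 to 1 in each. Over the vectors 1 to 3 members were called, beside 4951 to 6037 of all genes. Small values that changed sign ranged for Fbp1 from -0.31 to 0.38 in Mylk-shRNA and -0.015 to 0.44 in Rock1/2-shRNA, and over the vectors from -0.023 to 0.20 for Lrp2 and -0.032 to 0.21 for Slc27a2. Between vectors they ranged for Dab2 from -0.018 to 0.099 (Rock1/2-shRNA positive) and -0.14 to 0.10 (Rock1/2-shRNA negative), for Amn from -0.32 to 0.66 and for Fbp1 from -0.57 to 0.0097 (Mylk-shRNA against Rock1/2-shRNA, positive). Between the fractions the vector's effect ranged from -0.36 to 0.37 for Slc27a2 (Mylk-shRNA) and -0.062 to 0.18 for Dab2 (Rock1/2-shRNA). Counts under 50 in most libraries limit Hnf4a, Amn, Slc27a2 and Fbp1.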
